A study of Mus musculus with 6 samples.

Results

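The miRNAs of the endothelial locus miR-126 and of the paired loci miR-221 and miR-222 were followed in mouse kidney under chronic intermittent hypoxia (CIH), the breathing pattern used to model obstructive sleep apnea. The members were taken by name, as every entry of the deposited count table that starts with mmu-miR-126a-, mmu-miR-126b-, mmu-miR-221- or mmu-miR-222-. This gave 6 of the 495 mature miRNAs, namely mmu-miR-126a-3p, mmu-miR-126a-5p, mmu-miR-221-3p, mmu-miR-221-5p, mmu-miR-222-3p and mmu-miR-222-5p. None of the 495 was mmu-miR-126b, so it was not analysed here. Small RNA was sequenced from the kidneys of male balb/c mice in 3 CIH samples and 3 Control samples. In the CIH group, nitrogen lowered inspired oxygen to 6% and it was brought back to 21% in a cycle of 2 minutes, 30 times per hour and 8 hours per day over 8 weeks. The Control group stayed in the same kind of chamber with room air. Neither the labels nor the methods give the animals' age or say that each sample is 1 mouse, so p-values measure only the spread between these samples.

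miRNAs are cut from a hairpin precursor whose 5p and 3p arms can both be loaded into Argonaute, and bases 2 to 8 of the loaded strand, the seed, pair with target mRNAs. miR-126 is the best known miRNA of endothelial cells. It is made from an intron of Egfl7, a gene for a protein that endothelium secretes. In endothelium the 3p arm represses Spred1 and Pik3r2, which restrain VEGF signaling, and the 5p arm represses the Notch ligand gene Dlk1. miR-221 and miR-222 come from neighbouring hairpins of the X chromosome. They are known to repress the cell cycle inhibitor gene Cdkn1b and, in endothelium, the receptor gene Kit, and they are expressed in smooth muscle and other cell types as well.

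The sequences are shown because the seed decides how the members group. With the seed in capitals and the strand written 5′ to 3′, the mature sequences that RefSeq gives on GRCm38.p6 for 4 of the 6 members were as follows.
mmu-miR-126a-3p: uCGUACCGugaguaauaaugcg
mmu-miR-221-3p: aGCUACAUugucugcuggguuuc
mmu-miR-222-3p: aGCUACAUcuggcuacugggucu
mmu-miR-221-5p: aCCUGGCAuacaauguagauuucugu
mmu-miR-221-3p and mmu-miR-222-3p shared their first 8 bases, and with them the seed GCUACAU. Past these bases they differ, and 11 of their 23 positions held the same base when they were written without gaps. The seeds of mmu-miR-126a-3p and mmu-miR-221-5p occurred in 0 other miRNAs, and GCUACAU occurred only in miR-221 and miR-222, among the 413 of 495 miRNAs that matched a RefSeq mature sequence by name. mmu-miR-126a-5p and mmu-miR-222-5p are named only.

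The hairpins show the arms in place, with the mature strands of the preceding lines in capitals.
Mir126a: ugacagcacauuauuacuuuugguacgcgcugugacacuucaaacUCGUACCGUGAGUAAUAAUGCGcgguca
Mir221: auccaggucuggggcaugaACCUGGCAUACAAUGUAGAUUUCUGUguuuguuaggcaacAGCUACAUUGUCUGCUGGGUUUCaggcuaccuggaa
Mir222: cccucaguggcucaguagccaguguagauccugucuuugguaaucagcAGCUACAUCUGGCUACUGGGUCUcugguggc
Mir126a lies on the plus strand of chromosome 2, from 26591357 to 26591429. Egfl7 spans 26580014 to 26593120 on the same strand. The hairpin falls in an intron of 8 of the 9 Egfl7 transcripts that cross it and in an exon of 1 retained-intron transcript, in GENCODE release M21. Gm20532, a longer gene model, also runs across it. Mir221 lies on the minus strand of chromosome X from 19146294 to 19146388, and Mir222 from 19146893 to 19146971. 504 bases separate the Mir221 and Mir222 hairpins. No annotated gene other than the miRNA genes overlaps them, and the nearest, the noncoding Gm14636, lies 10010 bases from Mir222. Mir126b is annotated on the opposite strand of the same stretch as Mir126a, and mmu-miR-126b-5p covers 19 of the positions of mmu-miR-126a-3p.

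The kidney libraries held 5905653 to 7622445 counts in CIH and 5431797 to 7741499 counts in Control. Levels are given as CPM, the counts scaled to a common total that TMM adjusts, a factor that edgeR sets from the bulk of the miRNAs and that ran from 0.929 to 1.05. 5 of the 6 members had at least 722 counts in each library, and mmu-miR-222-5p had 42 to 80. Markers of kidney tubule were abundant, with summed levels of 187436 to 213290 CPM in CIH and 184374 to 247038 CPM in Control for the 10 tubule miRNAs listed. The erythrocyte miRNA mmu-miR-451a averaged 5343 ± 730 CPM in CIH and 5311 ± 496 CPM in Control (SD, n = 3 each). The libraries are from whole tissue, so the number of endothelial cells and the amount of miRNA per cell cannot be told apart.

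miR-126a-3p, the endothelial guide strand, was one of the main miRNAs of both groups and its mean hardly differed between them. mmu-miR-126a-3p had 54146, 54349 and 50939 CPM in the CIH kidneys, against 53562, 47971 and 58038 CPM in the Control kidneys. The CIH libraries lay inside the range of the Control libraries. By rank it was at place 5 or 6 of the 495 miRNAs in each library, and it alone took 5.28% to 5.66% of the counts in CIH and 4.87% to 5.39% in Control. Its log2 fold change (CIH over Control) was -0.001 with a standard error of 0.10 and a 95% interval of -0.23 to 0.22 (edgeR quasi-likelihood test, adjusted p = 0.998). On the ratio scale that interval runs from 0.855 to 1.17.

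mmu-miR-126a-5p, the other arm of the same hairpin, was far scarcer. It had 1895, 1615 and 1944 CPM in CIH and 1919, 1978 and 1906 CPM in Control. CIH replicate 2 was the lowest of the 6 libraries, and the other 5 lay close together. The groups overlapped, and the log2 fold change was -0.09 (standard error 0.11, 95% interval -0.33 to 0.15, adjusted p = 0.90 from edgeR). Its place by mean level was 55 of 495.

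Of the seed pair, miR-221-3p was the more abundant and neither strand separated the groups. mmu-miR-221-3p had 1285, 1093 and 1258 CPM in CIH, against 1299, 1473 and 1082 CPM in Control. The highest and the lowest values both belonged to Control libraries, replicates 2 and 3. The log2 fold change was -0.08 (standard error 0.13, 95% interval -0.38 to 0.21, adjusted p = 0.92 from edgeR). mmu-miR-222-3p had 435.6, 300.5 and 388.6 CPM in CIH, against 372.9, 424.3 and 361.3 CPM in Control. Here the extremes were both CIH libraries, replicate 1 at the top and replicate 2 at the bottom. Its log2 fold change was -0.04 (standard error 0.15, 95% interval -0.37 to 0.28, adjusted p = 0.95 from edgeR). Since the pair shares a seed, their levels were also summed. The sum came to 1721, 1393 and 1647 CPM in CIH and 1672, 1897 and 1443 CPM in Control, and these ranges overlapped too.

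The 5p strands of the X-linked hairpins were the scarcest members. mmu-miR-221-5p had 135.7, 126.8 and 136.1 CPM in CIH, against 142.9, 131.0 and 154.9 CPM in Control, and the groups overlapped through Control replicate 2. It was the member with the largest estimated difference, a log2 fold change of -0.11 (standard error 0.12, 95% interval -0.37 to 0.16, adjusted p = 0.89 from edgeR). mmu-miR-222-5p had 80, 42 and 58 counts in CIH and 66, 46 and 65 counts in Control, or 10.04, 5.73 and 9.47 CPM in CIH and 8.58, 8.35 and 9.64 CPM in Control. CIH replicate 2 was again the lowest library. The log2 fold change was -0.08 (standard error 0.23, adjusted p = 0.95 from edgeR) and its 95% interval, -0.59 to 0.44, was the widest of the 6.

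**Figure D1:**
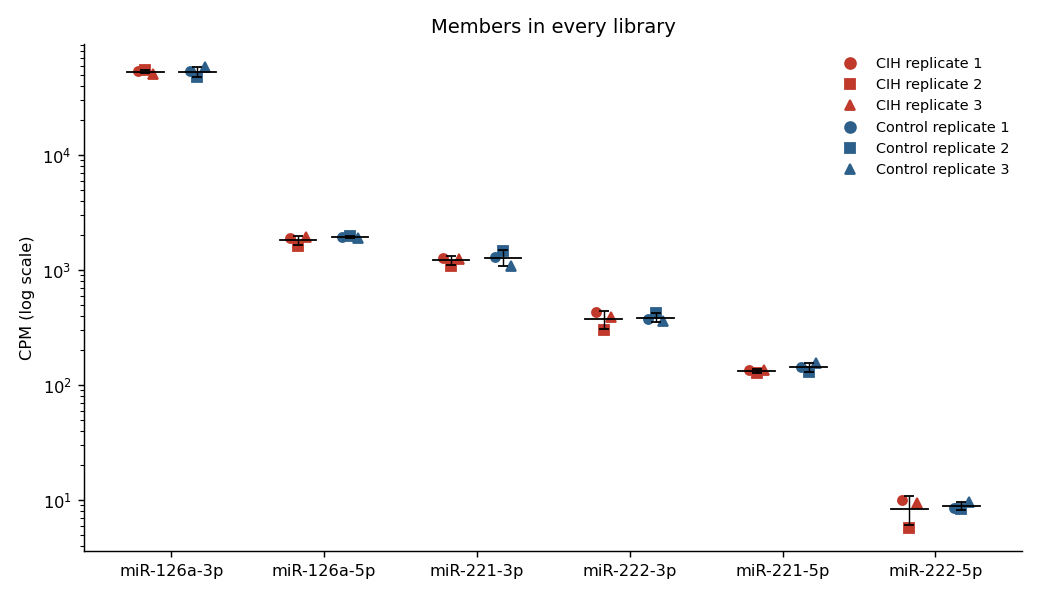
CPM on a log axis for the 6 members, with CIH libraries in red left of Control libraries in blue; the lines are group means and the bars the SD (n = 3). Group means run from 53145 CPM in CIH and 53190 CPM in Control for mmu-miR-126a-3p to 8.42 CPM in CIH and 8.86 CPM in Control for mmu-miR-222-5p, and the groups overlap for each member.

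In none of the 6 members did every CIH library lie beyond every Control library, where 12.5% of all miRNAs tested had groups that did not overlap. The study set thresholds for a changed miRNA, an unadjusted p of at most 0.05 with a fold of at least 1.5. In the edgeR fit used here, none of the 6 passed them, against 3.84% of the 495 miRNAs. That share is not the study's own result. At an adjusted p under 0.05, edgeR called 0 of the 495, and DESeq2 and limma also called 0. At an unadjusted p under 0.05 the 3 tools found 39, 29 and 38 miRNAs, which for edgeR is 7.88% of those tested, and 0 members in each case. The log2 fold changes of the 6 were all below 0, with a median of -0.08, beside a median of -0.003 over all miRNAs and 51.7% of them below 0. These signs rest on differences smaller than their standard errors, they are not independent of each other, and that of mmu-miR-126a-3p turned positive with DESeq2 size factors (0.01) and with plain library totals (0.06), as did that of mmu-miR-222-3p with plain library totals (0.02). For 5 of the 6 the 95% interval stayed inside a fold of 1.5 in either direction, as it did for 247 of the 495 miRNAs. The exception was mmu-miR-222-5p. A p that misses the threshold does not show equal levels, and differences smaller than these intervals could not be seen with 3 samples a group.

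**Figure D2:**
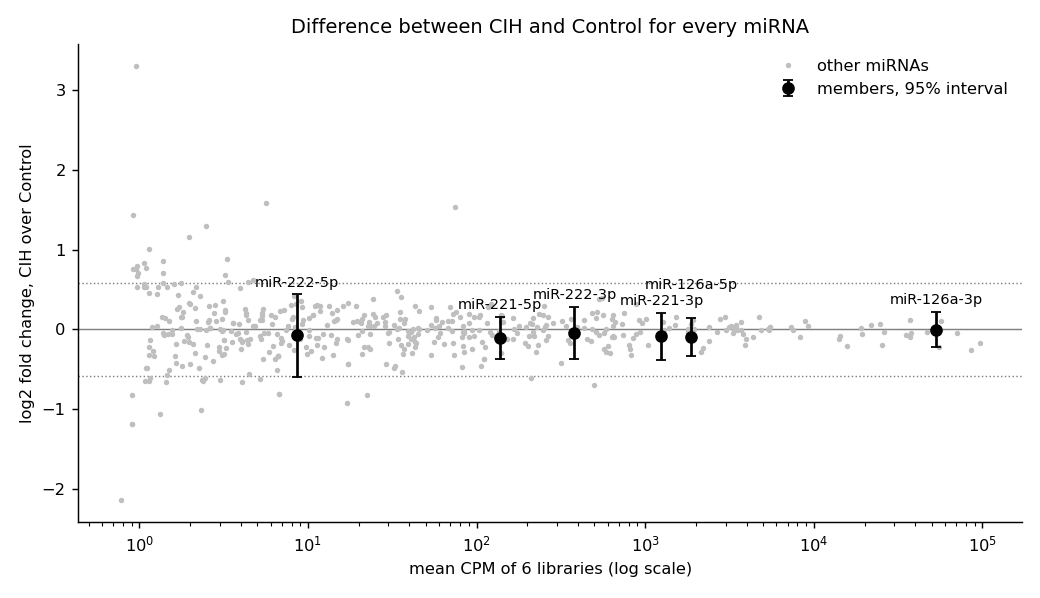
Log2 fold change of CIH over Control against mean CPM (log axis) for all 495 miRNAs (grey) and the 6 members (black, with 95% intervals from edgeR); dotted lines mark the fold of 1.5. The members lie between -0.11 and -0.001, and only the interval of mmu-miR-222-5p reaches a dotted line.

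The order of the members was the same in all 6 libraries, and the ranges of neighbours did not meet. From high to low it was mmu-miR-126a-3p, mmu-miR-126a-5p, mmu-miR-221-3p, mmu-miR-222-3p, mmu-miR-221-5p and mmu-miR-222-5p. The closest neighbours were mmu-miR-126a-5p and mmu-miR-221-3p, whose ratio was 1.47 to 1.54 in CIH and 1.34 to 1.76 in Control. The minor arm of the endothelial hairpin was therefore listed above the major arm of miR-221 in every library. Mature miRNAs are of nearly the same length, so no correction for length was made, but libraries can capture different sequences with different efficiency, and that was not tested. By mean level the 6 stood at places 6, 55, 66, 109, 152 and 311 of 495. Together they took 5.66% to 6.05% of the counts in CIH and 5.27% to 5.72% in Control, nearly all of it from mmu-miR-126a-3p.

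**Figure D3:**
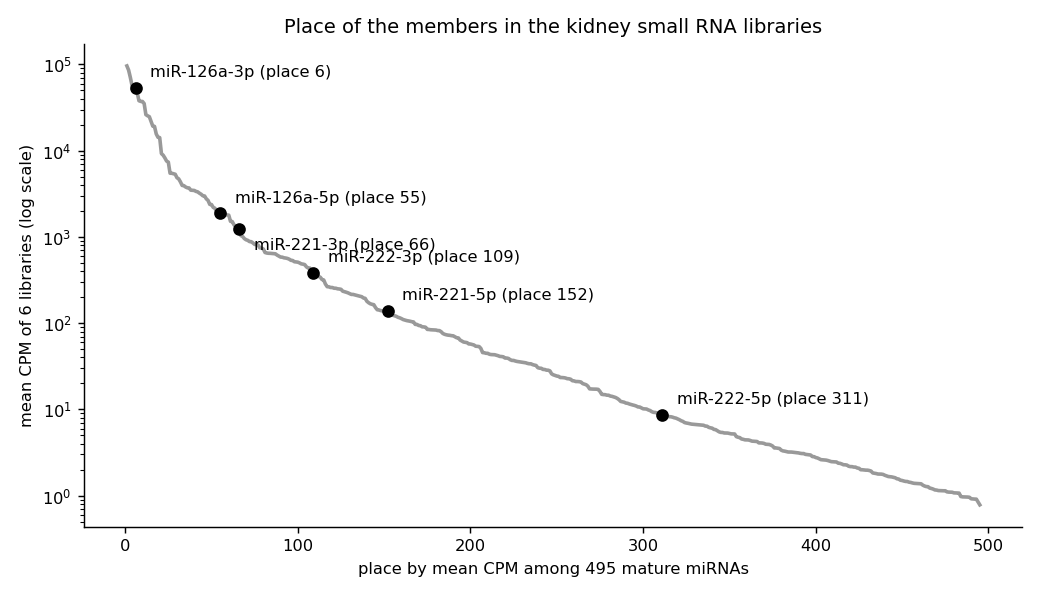
Mean CPM of the 6 libraries (log axis) against place for all 495 miRNAs (grey line), with the members as points. mmu-miR-126a-3p sits at place 6 among the dominant kidney miRNAs and mmu-miR-222-5p at place 311.

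Ratios within a library need no scaling between libraries, so arm usage was compared in this way. For miR-126a, the 3p arm exceeded the 5p arm 28.6, 33.7 and 26.2 times in CIH, against 27.9, 24.3 and 30.5 times in Control. CIH replicate 2 was the highest and Control replicate 2 the lowest, and the groups overlapped. The 5p arm thus made up 2.89% to 3.68% of the reads of the hairpin in CIH and 3.18% to 3.96% in Control. In CIH replicate 2, for example, the 5p share was 2.89% (Wilson 95% interval 2.83% to 2.94%), and in Control replicate 2 it was 3.96% (interval 3.89% to 4.03%). These intervals cover counting error only. The mean log2 ratio was 4.87 ± 0.18 in CIH and 4.78 ± 0.17 in Control (SD, n = 3 each), a difference of 0.10 (exact permutation test, two-sided, p = 0.5).

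miR-221 was the hairpin with the most balanced arms. Its 3p arm exceeded its 5p arm 9.48, 8.62 and 9.25 times in CIH, against 9.09, 11.2 and 6.98 times in Control. All CIH ratios lay between Control replicates 2 and 3, and the SD of the log2 ratio was 0.07 in CIH and 0.34 in Control. The means, 3.19 in CIH and 3.16 in Control, differed by 0.03 (exact permutation test, two-sided, p = 0.8, n = 3 each). For miR-222, the ratio was 43.4, 52.4 and 41.0 in CIH, against 43.5, 50.8 and 37.5 in Control. The difference of the mean log2 ratios was 0.06 (exact permutation test, two-sided, p = 0.8, n = 3 each), and with 42 to 80 counts of the 5p strand the counting error of 1 library's log2 ratio, 0.16 to 0.22, was as large as the SD between libraries, 0.19 in CIH and 0.22 in Control. For miR-126a that counting error was 0.012 to 0.014.

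Between the hairpins of the X-linked pair, mmu-miR-222-3p stood at 0.339, 0.275 and 0.309 of mmu-miR-221-3p in CIH, against 0.287, 0.288 and 0.334 in Control. mmu-miR-221-3p therefore supplied 74.7% to 78.4% of the seed-sharing reads of the pair in CIH and 75.0% to 77.7% in Control. The mean log2 ratio differed by 0.02 (exact permutation test, two-sided, p = 0.9, n = 3 each). mmu-miR-126a-3p exceeded mmu-miR-221-3p 42.1, 49.7 and 40.5 times in CIH, against 41.2, 32.6 and 53.6 times in Control. Control replicates 2 and 3 held both ends of this range, and the mean log2 ratio differed by 0.08 (exact permutation test, two-sided, p = 0.9, n = 3 each). Adjusted over these 5 ratios, each p was 0.9. With 3 samples against 3 the smallest p this test can give is 0.1, so none of the 5 could have passed 0.05.

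**Figure D4:**
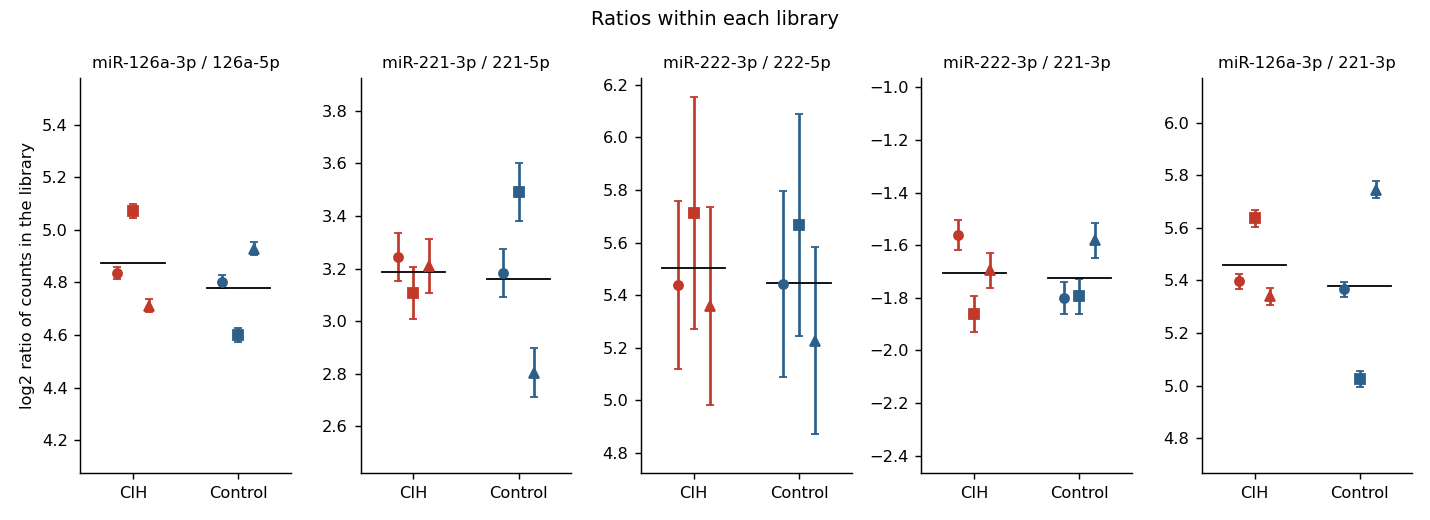
Log2 ratio of counts within each library for the 3 arm ratios and the 2 ratios between hairpins, CIH (red) left of Control (blue), replicates 1 to 3 from left to right; bars are 95% counting error and lines are group means. Each panel spans the same log2 range, and the groups overlap in all 5.

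Across the 6 libraries the members did not move as a block, and the arms of 1 hairpin did not always move together. The values that follow are Pearson correlations of log2(CPM + 0.5) over 6 libraries that share their scaling, given as descriptions. mmu-miR-221-3p and mmu-miR-222-3p had r = 0.77 and the arms of miR-222 had r = 0.79. The arms of miR-126a, in contrast, had r = -0.36 and those of miR-221 r = -0.32. mmu-miR-126a-3p and mmu-miR-221-3p ran opposite to each other, with r = -0.85. The libraries behind this were Control replicates 2 and 3. In Control replicate 2, mmu-miR-126a-3p was 0.15 below its mean on the log2 scale (deviation -0.15) and mmu-miR-221-3p 0.25 above it. In Control replicate 3 they were at 0.13 and -0.20. Some miRNAs outside the part also differed between these libraries, in both directions. mmu-let-7c-5p had 11461 CPM in Control replicate 2 and 6375 CPM in Control replicate 3, and mmu-miR-148a-3p had 11518 and 18329 CPM. Whether the contrast is particular to the members was not tested. CIH replicate 2 was the lowest of all libraries in mmu-miR-126a-5p, mmu-miR-222-3p, mmu-miR-221-5p and mmu-miR-222-5p, with log2 deviations of -0.21, -0.33, -0.12 and -0.57. In the same library mmu-miR-221-3p was at -0.18, with only Control replicate 3 lower. mmu-miR-126a-3p, by contrast, was at 0.03 in CIH replicate 2.

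**Figure D5:**
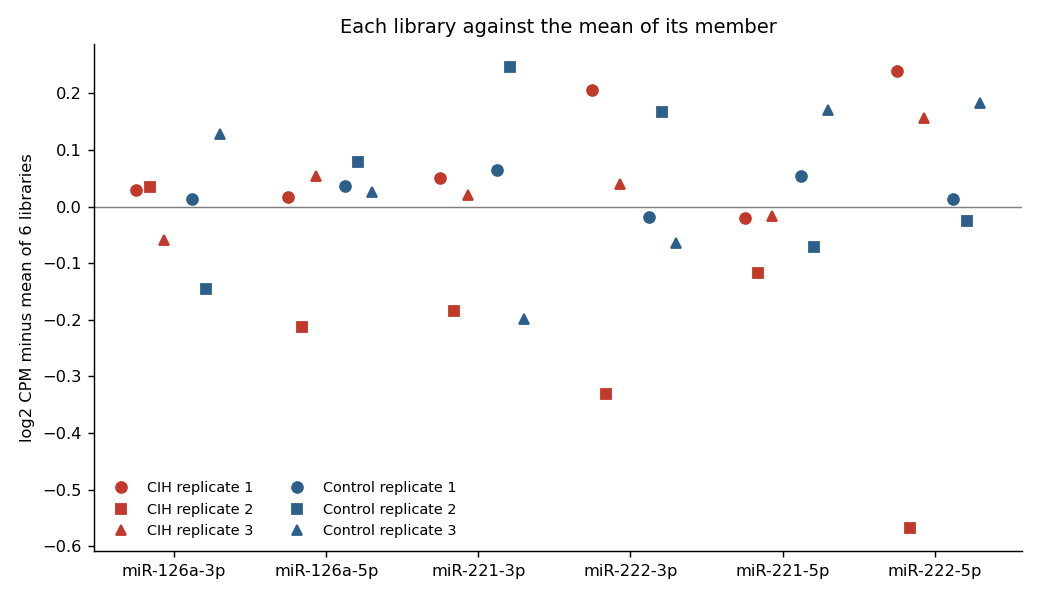
Log2 CPM of each library minus the mean of the 6 libraries, for each member, CIH (red) left of Control (blue). CIH replicate 2 (red squares) is the lowest library in 4 of the 6 members, at -0.57 in mmu-miR-222-5p, while the CIH and Control points overlap throughout.

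The miRNAs whose levels followed a member most closely over the 6 libraries were looked up among those with a mean of at least 100 CPM. For mmu-miR-126a-3p they were the tubule miRNA mmu-miR-192-5p (r = 0.96), mmu-miR-200a-5p (r = 0.96) and mmu-miR-151-3p (r = 0.96). For mmu-miR-126a-5p they were mmu-miR-320-3p (r = 0.94), mmu-miR-32-5p (r = 0.92) and mmu-miR-365-3p (r = 0.90). mmu-miR-221-3p was followed by the smooth muscle miRNA mmu-miR-145a-5p (r = 0.95), the erythroid mmu-miR-144-3p (r = 0.95) and mmu-miR-30c-5p (r = 0.94). For mmu-miR-222-3p they were mmu-miR-450a-5p (r = 0.86), mmu-miR-145a-5p (r = 0.86) and mmu-miR-126a-5p (r = 0.85). mmu-miR-221-5p was closest to mmu-miR-106b-5p (r = 0.91), mmu-miR-17-5p (r = 0.89) and mmu-miR-34c-5p (r = 0.89), and mmu-miR-222-5p to mmu-miR-32-5p (r = 0.92), mmu-miR-450a-5p (r = 0.89) and mmu-miR-320-3p (r = 0.87). With 166 or 167 candidates and 6 libraries, high values arise readily, and no p is given.

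Other miRNAs known from endothelium and angiogenesis were read beside the members. Of the 34 tested, 15 had a log2 fold change above 0 and 19 below 0. Their median was -0.01 and their range -0.46 to 0.41. The study thresholds were passed by 0 of them, against 3.84% of all miRNAs tested, and an adjusted p under 0.05 by 0, as over all miRNAs. The most abundant were mmu-miR-10a-5p, mmu-miR-21a-5p and mmu-miR-10b-5p. mmu-miR-10a-5p, of the Hox clusters and known in endothelium for restraining inflammatory signaling, averaged 90231 ± 9170 CPM in CIH and 101915 ± 10436 CPM in Control (SD, n = 3 each). mmu-miR-21a-5p, a miRNA induced in many injuries, averaged 58645 ± 5087 CPM in CIH and 54615 ± 6524 CPM in Control (SD, n = 3 each), a log2 fold change of 0.10. mmu-miR-10b-5p had a log2 fold change of -0.10. At an unadjusted p under 0.05 there were 2 of the 34, where 7.88% of all miRNAs tested had such a p. They were mmu-miR-19a-3p and mmu-miR-19b-3p of the miR-17-92 cluster, both with a log2 fold change of -0.46 (adjusted p = 0.58 from edgeR). The other listed miRNAs of this cluster did not share that difference. For mmu-miR-17-5p, mmu-miR-18a-5p, mmu-miR-20a-5p and mmu-miR-92a-3p the log2 fold changes were -0.04, 0.07, -0.03 and -0.06. In 4 of the 34 the groups did not overlap, against 12.5% of all miRNAs, with the CIH libraries below the Control libraries for mmu-miR-19a-3p, mmu-miR-19b-3p and mmu-miR-130a-3p and above them for mmu-miR-27a-3p. Both shares are near those over all miRNAs. These 4 and the other cluster members were named after their values were seen.

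Listed miRNAs known from other cells of the kidney gave levels against which mmu-miR-126a-3p could be set. All were measured in whole tissue, so these ratios do not compare cell types. The 9 smooth muscle and mesenchyme miRNAs summed to 54878 to 59779 CPM in CIH and 55408 to 60800 CPM in Control, and mmu-miR-126a-3p alone stood at 0.909 to 0.940 of that sum in CIH and 0.866 to 0.955 in Control. mmu-miR-143-3p, the main smooth muscle miRNA of the list, averaged 46304 ± 2671 CPM in CIH and 47189 ± 3942 CPM in Control (SD, n = 3 each). The next in abundance, mmu-miR-199a-3p and mmu-miR-199a-5p of mesenchyme, had log2 fold changes of 0.03 and -0.04. The median log2 fold change of these 9 was -0.03, and 0 passed the study thresholds, which 3.84% of all miRNAs tested passed. The 10 tubule miRNAs had a median of -0.06 and the 9 blood miRNAs -0.03, also with 0 past the thresholds. Log2 fold changes ran from -0.16 to 0.05 for smooth muscle and mesenchyme, -0.69 to 0.10 for tubule and -0.24 to 0.38 for blood. Groups did not overlap for 1 miRNA of each list, against 12.5% of all miRNAs. These were mmu-miR-214-5p and mmu-miR-204-5p, lower in CIH, and mmu-miR-486a-5p, higher in CIH, named after their values were seen. Of the tubule list the most abundant were mmu-miR-30a-5p, mmu-miR-192-5p and mmu-miR-200b-3p, with log2 fold changes of -0.26, -0.05 and 0.02, and mmu-miR-200b-3p also stood in the endothelial list. Of the blood list they were mmu-miR-451a, mmu-miR-142a-5p and mmu-miR-486a-5p, at 0.01, 0.04 and 0.38. For mmu-miR-486a-5p the unadjusted p was 0.0189 and the adjusted p 0.58 from edgeR. It was 1 of the 9 with an unadjusted p under 0.05, against 7.88% of all miRNAs tested. mmu-miR-126a-3p stood at 0.255 to 0.287 of the tubule sum in CIH and 0.235 to 0.260 in Control, and these ranges overlapped. The blood list, which includes the platelet and leukocyte miRNAs mmu-miR-223-3p and mmu-miR-142a-3p, summed to 6623 to 8365 CPM in CIH and 6345 to 7700 CPM in Control, or less than mmu-miR-126a-3p alone in every library. No miRNA of these 3 lists was at 0 in any library.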

How the data were processed

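Raw read counts per mature miRNA, deposited by the authors for 3 CIH and 3 Control kidney samples, were the starting point. For making them, the submitters' processing notes name cutadapt and Bowtie. Their versions, the miRBase release, the genome build and the treatment of reads that map to several places were not given in the sources used here. Of 584 entries, the one with the highest total was kept for each of 44 miRNAs listed more than once; none of these is a member of the miR-126 or miR-221/222 loci. A miRNA was tested if 3 or more libraries had a count of it above 0, and all 495 met this.

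CIH was compared with Control by edgeR 4.0.16 in R 4.3.3 (quasi-likelihood test, TMM, group as the only term, Benjamini-Hochberg adjustment over 495 miRNAs). The biological coefficient of variation was 15.7%. Intervals of fold changes are 95% t intervals from the same test. Ratios were compared with exact permutation tests in scipy 1.17.1, with Benjamini-Hochberg adjustment over 5 ratios. The script was tested on simulated data.

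The study's methods state an unpaired test, and the thresholds are those of its table of changed miRNAs. The members and lists were chosen with earlier results of these data known. The text names all members, for each member the 3 miRNAs of highest correlation, miRNAs sharing a seed, and the most abundant of each list. Some other listed miRNAs were named after their values were seen. Lists were of miRNAs of endothelium, smooth muscle, blood, kidney tubule and other tissues. In the list of 10 for other tissues, 8 were analysed, with a median log2 fold change of 0.21 and 1, mmu-miR-217-5p, past the study thresholds, which 3.84% of all miRNAs passed. It was near 0 in all libraries but CIH replicate 3, at 0.502, 0.273 and 4.57 CPM in CIH and 0.130, 0 and 0.297 CPM in Control. The most abundant of this list were mmu-miR-9-5p, mmu-miR-1a-3p and mmu-miR-375-3p. Alternatives covered scaling, test, filter, entries, a replicate block and each library left out. Sequences and positions are from RefSeq and GENCODE on GRCm38.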

Additional observations from a re-analysis of the deposited data

How the results depend on the processing

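No member passed the study thresholds or an adjusted p of 0.05 under any of the 13 alternatives in which it was tested. mmu-miR-222-5p, with a mean of 8.64 CPM, was left out by the filter of a mean of at least 10 CPM, and the others were tested in all 13. Over these, the lowest adjusted p was 0.60 (mmu-miR-221-5p without Control replicate 2, edgeR). The log2 fold changes ran from -0.23 to 0.14 over all members and alternatives. The sign changed in 12 of 77 alternative values of the members' log2 fold changes and in 10 of 40 of the ratio differences. mmu-miR-126a-3p turned to 0.0108 with DESeq2 size factors, 0.0643 with library totals only, 0.0108 with DESeq2's test, 0.00196 with limma's voom test and 0.00252 with the replicate block. mmu-miR-222-3p turned to 0.0220 with library totals only. With 1 library left out, the log2 fold change ran from -0.0703 to 0.0602 for mmu-miR-126a-3p, from -0.20 to 0.0263 for mmu-miR-221-3p, from -0.16 to 0.0941 for mmu-miR-222-3p and from -0.23 to 0.14 for mmu-miR-222-5p, whose sign changed without CIH replicate 2. For mmu-miR-126a-5p and mmu-miR-221-5p it stayed below 0, from -0.14 to -0.01 and from -0.16 to -0.05. The differences of the log2 ratios ran from -0.00285 to 0.18 for the arms of miR-126a, from -0.15 to 0.19 for those of miR-221, from -0.0520 to 0.17 for those of miR-222, from -0.0532 to 0.10 for mmu-miR-222-3p over mmu-miR-221-3p and from -0.10 to 0.26 for mmu-miR-126a-3p over mmu-miR-221-3p with 1 library left out. Linear ratios kept each direction. Exact sign flips over same-numbered libraries, the replicate block of the ratios, gave p of 0.5 to 1 where 0.25 is the smallest possible. Same-numbered libraries did not deviate together (r = -0.06, -0.15 and -0.03 for numbers 1, 2 and 3), no library correlated best with its own number, and the numbers were not taken as pairs, and the block changed no call. Only 3 samples a group limit the precision, and for mmu-miR-222-5p, with 42 to 80 counts, so does depth.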
